A study of Mus musculus with 12 samples.

Results

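The dual-specificity MAP kinase phosphatases described here are Dusp1, Dusp2, Dusp4, Dusp5, Dusp6, Dusp7, Dusp8, Dusp10, Dusp14 and Dusp16. These 10 genes were taken by symbol from the 38887 genes of the expression table, and no measured value entered the choice. RNA was sequenced from hand-picked mouse retinal ganglion cells, the neurons whose axons form the optic nerve, 3 days after the nerve was crushed or after sham surgery. The Opn4 crush group and the Opn4 sham group came from Opn4CreERT/+;R26-tdTomatof/f mice, in which tamoxifen-activated Cre driven from the melanopsin locus turns on the red reporter tdTomato. The HB9 crush group and the HB9 sham group came from HB9:GFP mice, in which the transgene labels a direction-selective class of ganglion cell. Each of the 4 groups held 3 libraries. Mice of both lines received tamoxifen at 0.124 mg/g on 5 days starting at postnatal day 21 and surgery at postnatal day 42. Each library pooled 30 fluorescent cells, 10 from each of 3 animals, and its mRNA was amplified before sequencing. Only the Opn4 line carries Cre and tdTomato, so cell class and mouse line cannot be told apart.

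MAP kinases are switched on by phosphorylation of a threonine and a tyrosine in one activation loop, and the dual-specificity phosphatases remove both phosphates. Dusp1, Dusp2, Dusp4 and Dusp5 encode nuclear enzymes whose genes are usually induced by the kinases that they later inactivate. Dusp6 and Dusp7 encode cytoplasmic enzymes that prefer ERK, and Dusp8, Dusp10 and Dusp16 encode enzymes that prefer JNK and p38, the stress-activated kinases. Dusp14 encodes a small atypical member without the kinase-binding domain of the others. In retinal ganglion cells, JNK signalling with its upstream kinase DLK and its target Jun is a known early response to axon injury.

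The values are RPKM, read counts divided by gene length and by library size. The library totals used for this scaling, as recovered from the values themselves, were 15104446 to 28195798 reads. Jun, the injury-induced transcription factor, averaged 246 ± 42.2 RPKM in Opn4 crush libraries against 11.04 ± 0.242 RPKM in Opn4 sham libraries, and 251 ± 7.76 RPKM in HB9 crush libraries against 25.9 ± 6.48 RPKM in HB9 sham libraries (SD, n = 3 each). Opn4, the melanopsin gene, averaged 1361 and 1576 RPKM in Opn4 crush and Opn4 sham libraries, against 15.3 and 8.42 RPKM in HB9 crush and HB9 sham libraries. Mnx1, the gene also called HB9, averaged 2.38 RPKM in HB9 crush libraries and 32.2 RPKM in HB9 sham libraries, so after crush it was a weak check of that label. Cartpt, another marker of the HB9 class, was at 1364 to 6395 RPKM in HB9 crush against 81.9 to 155 RPKM in Opn4 crush libraries. It was at 4731 to 5935 RPKM in HB9 sham against 134 to 177 RPKM in Opn4 sham libraries. All 10 rod photoreceptor markers were detected in every group, with summed levels of 949 to 2632 RPKM in Opn4 crush, 583 to 1572 RPKM in Opn4 sham, 461 to 781 RPKM in HB9 crush and 172 to 742 RPKM in HB9 sham libraries. The microglial list of 6 markers summed to 0.614 to 14.6 RPKM over all libraries, and of these markers C1qb alone was listed at 0 in each. In every group but Opn4 crush, 1 marker of the list reached 1 RPKM in all libraries. Opn4 crush 1 and Opn4 sham 1 lay apart from the other libraries on the third principal component, which held 10.4% of the variance.

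Optic nerve crush was followed by higher Dusp1 and Dusp8 in both ganglion cell classes. Dusp10 and Dusp14 passed the test given below as higher in HB9 cells alone, but for neither did the responses of the classes pass as different. The Dusp14 difference was of similar size in both classes with 1 added to RPKM before the logarithm. With 0.1 added instead, it was larger in Opn4 cells by 0.99 on the log2 scale. The HB9 calls of Dusp8, Dusp10 and Dusp14 were lost in some fits that left out 1 library. The family's summed level was 503, 622 and 597 RPKM in the Opn4 crush libraries, against 104, 248 and 137 RPKM in the Opn4 sham libraries. In HB9 cells the sum was 350.4, 347 and 359 RPKM after crush, against 127, 121 and 125 RPKM after sham. Crush libraries lay above sham libraries in each class without overlap. Most of the sum was Dusp1 and Dusp8, which together held 81.0% to 90.4% of it in Opn4 crush, 72.2% to 88.3% in Opn4 sham, 64.1% to 75.3% in HB9 crush and 52.9% to 62.2% in HB9 sham libraries. Some marker sums of other cell classes moved with crush in HB9 libraries. The 6 bipolar markers overlapped, at 1.65 to 40.3 RPKM in HB9 crush against 29.0 to 40.1 RPKM in HB9 sham libraries, and 0 passed. The 6 amacrine markers summed to 50.5 to 131 RPKM in HB9 crush against 3.10 to 26.2 RPKM in HB9 sham libraries, and 1 passed as higher. The 5 markers of the Opn4 class summed to 274 to 349 RPKM in HB9 crush against 38.4 to 60.5 RPKM in HB9 sham libraries, and 2 passed as higher. Opn4 itself averaged 15.3 RPKM and Eomes, another of these markers, 8.08 RPKM in HB9 crush libraries, so most of that sum came from other markers of the list. The 6 glial markers summed to 35.0 to 42.6 RPKM against 13.2 to 15.2 RPKM, with Sox9 and Aqp4 listed at 0 in both HB9 groups. Gfap was listed at 0 in every HB9 sham library but not in every HB9 crush library. Only 2 of the glial markers were tested, and 0 passed. The 9 general ganglion cell markers summed to 5109 to 5796 RPKM in HB9 crush against 8483 to 9524 RPKM in HB9 sham libraries, and 3 passed as lower. Among them Rbpms averaged 104 RPKM in HB9 crush and 242 RPKM in HB9 sham libraries, while Slc17a6 averaged 870 and 862 RPKM. In Opn4 cells the ganglion cell sum was 4164 to 4791 RPKM after crush against 5047 to 5455 RPKM after sham, and 1 passed as lower. The part of these markers in the members' results was not tested. Fewer cells of a type and less RNA per cell cannot be told apart in pooled libraries such as these.

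**Figure D1:**
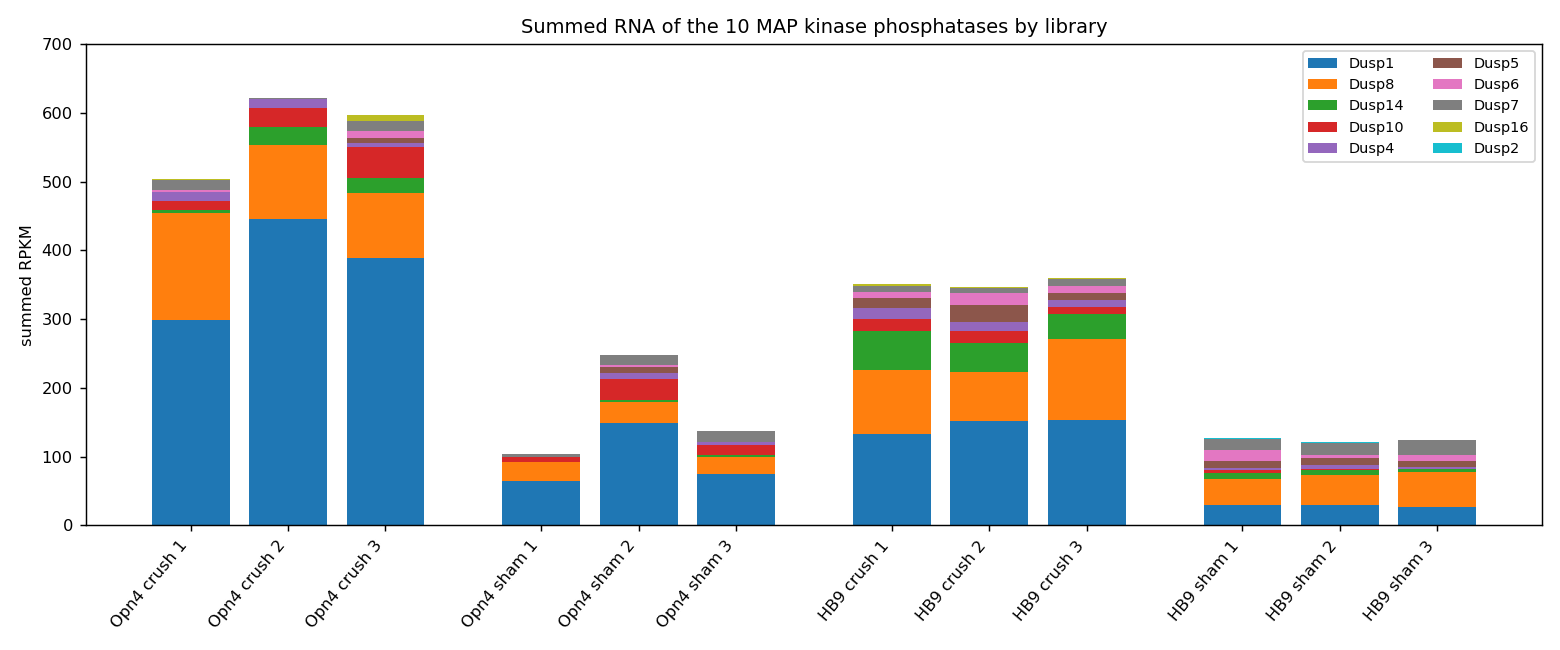
Summed RPKM of the 10 phosphatase genes in each of the 12 libraries, stacked by gene, with each class's crush libraries left of its sham libraries. The Opn4 crush bars reach 503 to 622 RPKM and the HB9 sham bars 121 to 127 RPKM, and Dusp1 and Dusp8 make up most of every bar.

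Differences were tested with limma on log2(RPKM + 1) over the 18269 genes with at least 1 RPKM in 3 or more of the 12 libraries. A gene passed when its Benjamini-Hochberg adjusted p over all of these genes was below 0.05. Of the 10 phosphatase genes 9 were tested, and Dusp2 was not. Dusp16 entered the test through 4 crush libraries alone, so a higher level after crush was built into its selection. In Opn4 cells 2 of the 9 tested members rose after crush and 0 fell, while 0.69% of all tested genes rose and 0.421% fell, 1.11% in all. In HB9 cells 4 of the 9 rose and 0 fell, while 3.84% of all tested genes rose and 2.57% fell, 6.42% in all. The median log2 difference of the 9 members was 1.44 in Opn4 cells, the value of Dusp16 itself, and 1.55 in HB9 cells, the value of Dusp4. The Opn4 median thus rests on the member whose direction was built into its selection. Medians over all tested genes were -0.02 and 0.11. With all libraries set to a common median, which removes such shifts, the members called were unchanged except in the average over both classes, where Dusp10 and Dusp16 no longer passed. Without a test, 4 of the 9 members had all Opn4 crush libraries above all Opn4 sham libraries, against 7.38% of all genes, and 0 of the 9 lay wholly below, against 7.33%. In HB9 cells 6 of the 9 lay wholly above, against 19% of all genes, and 1 lay wholly below, against 12.6%.

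**Figure D2:**
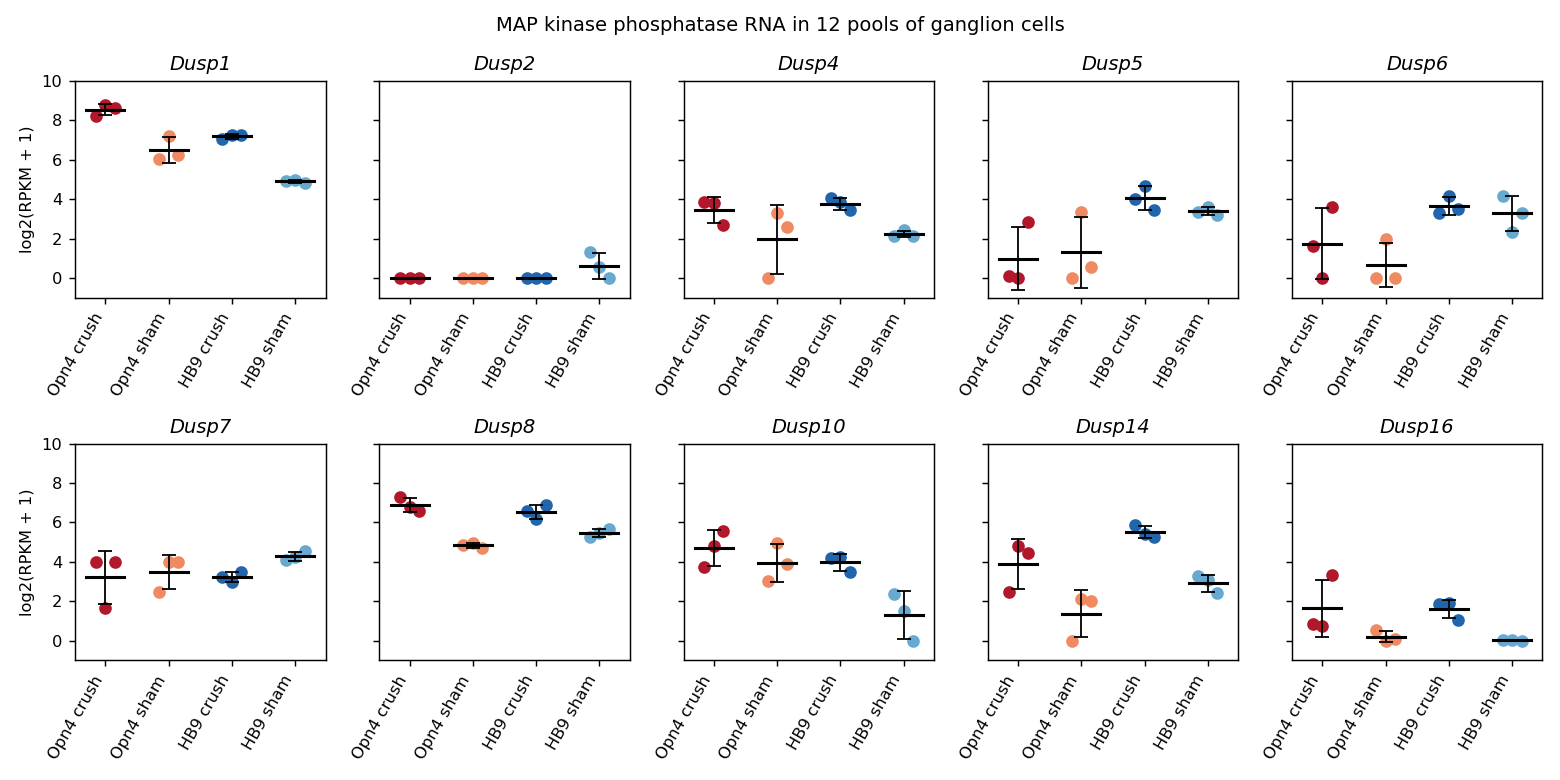
Levels of the 10 phosphatase genes on a log2(RPKM + 1) scale, 1 panel per gene and 1 point per library, with bars for the group mean and SD (n = 3 per group). Dusp1 and Dusp8 are highest in crush libraries of both classes, and Dusp2 is above 0 in 2 HB9 sham libraries alone.

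Dusp1 (ENSMUSG00000024190, 17:26505590-26508519 in mm10, minus strand) encodes a nuclear phosphatase of JNK, p38 and ERK and was the highest member in all groups but HB9 sham. Its level was 299, 445 and 389 RPKM in Opn4 crush libraries, against 64.2, 149 and 74.5 RPKM in Opn4 sham libraries. In HB9 libraries it was 132, 152 and 153 RPKM after crush, against 29.5, 30.0 and 27.0 RPKM after sham. Every crush library exceeded every sham library of its class, and the HB9 crush values fell close to the highest Opn4 sham value. The log2 difference was 2.05 ± 0.27 (SE) in Opn4 cells, with a limma adjusted p of 0.00294, and 2.29 ± 0.27 in HB9 cells, with an adjusted p of 0.000241. The increase in HB9 cells passed under each of 22 alternative settings, and that in Opn4 cells under 21 of 22. The exception was a fit to the 6 Opn4 libraries alone, where the log2 difference was the same and the limma adjusted p was 0.149.

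Dusp1 was also the member whose class difference passed after both surgeries. After sham it was 1.60 ± 0.27 higher in Opn4 than in HB9 cells on the log2 scale, with a limma adjusted p of 0.0018. After crush it was 1.35 ± 0.27 higher in Opn4 cells, with an adjusted p of 0.00571. All Opn4 libraries exceeded all HB9 libraries of the same surgery. Both class differences passed under all 22 alternatives, including a fit with the rod marker level as a covariate. The difference between the crush responses of the classes, Opn4 minus HB9, was -0.25 ± 0.38 with a 95% interval of -1.07 to 0.57, and its adjusted p was 0.852.

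Dusp4 (ENSMUSG00000031530, 8:34807297-34819894, plus strand), which encodes a nuclear phosphatase related to the Dusp1 product, was a low to moderate transcript. It stood at 13.6, 12.8 and 5.55 RPKM in Opn4 crush libraries, against 0, 8.75 and 4.94 RPKM in Opn4 sham libraries. Its HB9 levels were 15.5, 13.3 and 9.90 RPKM after crush, against 3.40, 4.40 and 3.34 RPKM after sham. The Opn4 groups overlapped and the HB9 groups did not. Neither difference passed, with 1.50 ± 0.69 (limma adjusted p = 0.345) in Opn4 cells and 1.55 ± 0.69 (adjusted p = 0.245) in HB9 cells on the log2 scale. Without Opn4 sham 1, where Dusp4 was listed at 0, the Opn4 difference was 0.53 and the HB9 difference passed with an adjusted p of 0.0418. The HB9 difference also passed in the fit to the 6 HB9 libraries alone, with an adjusted p of 0.025.

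Dusp5 (ENSMUSG00000034765, 19:53529109-53542431, plus strand), a nuclear phosphatase specific for ERK, was higher in HB9 than in Opn4 cells after crush, and neither crush difference passed. Its level was 0.0700, 0 and 6.25 RPKM in Opn4 crush libraries, against 0, 9.13 and 0.470 RPKM in Opn4 sham libraries. In the HB9 groups it was 15.1, 24.8 and 9.93 RPKM after crush, against 9.22, 11.3 and 8.24 RPKM after sham. Both pairs of groups overlapped, and the crush differences of -0.31 ± 0.88 in Opn4 cells and 0.66 ± 0.88 in HB9 cells had 95% intervals of -2.22 to 1.59 and -1.25 to 2.56. After crush Dusp5 was lower in Opn4 than in HB9 cells by a log2 difference of -3.07 ± 0.88, with a limma adjusted p of 0.0376 and no overlap between the groups. This call passed in 8 of 22 alternatives, with adjusted p up to 0.258 under the rod covariate. It was lost without any one of Opn4 crush 1, Opn4 crush 2 and the 6 HB9 libraries, at adjusted p of 0.0531 to 0.125. Without Opn4 crush 3 the log2 difference was -4.00, with an adjusted p of 0.00912. After sham the class difference was -2.09 ± 0.88 with an adjusted p of 0.158, and the groups overlapped through Opn4 sham 2. Leaving out Opn4 sham 2 gave -3.12 and an adjusted p of 0.0255.

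Dusp2 (ENSMUSG00000027368, 2:127336159-127338376, plus strand) encodes a nuclear phosphatase best known from activated immune cells. It was listed at 0 in 10 of the 12 libraries. The exceptions were HB9 sham 1 and HB9 sham 2 at 1.49 and 0.466 RPKM, which correspond to 67 and 23 recovered reads. No comparison was made for it.

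Dusp6 (ENSMUSG00000019960, 10:99263231-99267488, plus strand) encodes the cytoplasmic ERK phosphatase that is itself an ERK-induced feedback gene in many tissues. It stood at 2.08, 0 and 10.97 RPKM in Opn4 crush libraries, against 0, 2.89 and 0 RPKM in Opn4 sham libraries. Among HB9 libraries the level was 8.67, 16.9 and 10.4 RPKM after crush, against 16.9, 4.11 and 8.998 RPKM after sham. Both pairs overlapped, and neither crush difference passed, at 1.08 ± 0.84 (limma adjusted p = 0.601) in Opn4 cells and 0.37 ± 0.84 (adjusted p = 0.878) in HB9 cells. All Opn4 sham libraries lay below all HB9 sham libraries. That class difference was -2.63 ± 0.84 with an adjusted p of 0.0613. It passed without Opn4 sham 2, at -3.28 and an adjusted p of 0.0341, and without Opn4 crush 2 or 3, at adjusted p of 0.0288 and 0.0262. After crush the class difference was -1.91 ± 0.84 with an adjusted p of 0.164, through Opn4 crush 3, which overlapped the HB9 crush libraries. Without Opn4 crush 3 it was -2.84 with an adjusted p of 0.0323, and without Opn4 crush 2 it was -1.05.

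Dusp7 (ENSMUSG00000053716, 9:106368632-106375724, plus strand), which encodes the other cytoplasmic ERK phosphatase, was the sole member with a lower mean after crush in both classes. It stood at 14.99, 2.14 and 14.9 RPKM in Opn4 crush libraries, against 4.50, 14.8 and 15.02 RPKM in Opn4 sham libraries. HB9 libraries had 8.32, 6.74 and 10.1 RPKM after crush, against 15.97, 17.8 and 22.1 RPKM after sham. The Opn4 groups overlapped, and all HB9 crush libraries lay below all HB9 sham libraries. The HB9 log2 difference was -1.07 ± 0.60 with a limma adjusted p of 0.39, and it passed in the fit to the 6 HB9 libraries alone with an adjusted p of 0.0472. The Opn4 difference was -0.27 ± 0.60 with a 95% interval of -1.57 to 1.04, and without Opn4 crush 2 it was 0.51.

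Dusp8 (ENSMUSG00000037887, 7:142079490-142095843, minus strand) encodes a JNK and p38 phosphatase known from brain and was the highest member in HB9 sham cells. Its level was 156, 108 and 94.9 RPKM in Opn4 crush libraries, against 27.8, 29.9 and 25.0 RPKM in Opn4 sham libraries. In HB9 libraries it was 93.3, 70.7 and 118 RPKM after crush, against 37.9, 43.4 and 50.5 RPKM after sham. Crush libraries lay above sham libraries in both classes without overlap. The log2 difference was 2.05 ± 0.24 in Opn4 cells, with a limma adjusted p of 0.00148, and passed in 21 of 22 alternatives. The exception was the fit to the 6 Opn4 libraries alone, with an adjusted p of 0.0864. In HB9 cells the log2 difference was 1.06 ± 0.24 with an adjusted p of 0.02. That call was lost without HB9 crush 1, HB9 crush 3, HB9 sham 1 or HB9 sham 2, at adjusted p of 0.0705 to 0.102 and log2 differences of 0.88 to 1.05, and with the rod covariate at an adjusted p of 0.0618.

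The crush response of Dusp8 was larger in Opn4 than in HB9 cells by 0.99 ± 0.34 on the log2 scale, with a 95% interval of 0.25 to 1.73. Its unadjusted limma p was 0.0129 and its adjusted p 0.235, so the difference between the responses did not pass. After sham Dusp8 was lower in every Opn4 library than in any HB9 library, with a log2 difference of -0.65 ± 0.24 and an adjusted p of 0.111. After crush the classes overlapped, and the log2 difference was 0.34 ± 0.24 with an adjusted p of 0.403. With Dusp1 higher and Dusp8 lower in Opn4 sham than in HB9 sham libraries, the ratio of Dusp1 to Dusp8 was 1.91 to 4.13 in Opn4 crush and 2.31 to 4.98 in Opn4 sham libraries. It was 1.30 to 2.15 in HB9 crush libraries and 0.534 to 0.778 in HB9 sham libraries. Dusp1 was therefore the higher of the pair in every library but the 3 of the HB9 sham group.

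Windows upstream of the RefSeq starts of Dusp1 and Dusp8 are shown because these genes rose in both classes and their windows were the member windows that held the full cAMP response element TGACGTCA. Dusp5 is also shown, since it has a well-known serum response element and did not pass in either crush comparison. The windows were thus picked partly by crush result, and no link between a motif and a crush response was tested. Each run gives the 250 bases before the start, 5′ to 3′ on the gene's strand, in build GRCm38.p6 (mm10) from RefSeq. Capitals mark the cAMP response element in Dusp1 and Dusp8 and the adjoining serum response elements in Dusp5.
Dusp1, chr17:26508473-26508722, minus strand: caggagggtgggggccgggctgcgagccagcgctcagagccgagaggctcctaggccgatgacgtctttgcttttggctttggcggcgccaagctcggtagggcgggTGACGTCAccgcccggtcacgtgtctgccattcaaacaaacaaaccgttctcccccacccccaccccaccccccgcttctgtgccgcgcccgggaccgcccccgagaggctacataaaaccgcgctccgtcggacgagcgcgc
Dusp8, chr7:142095285-142095534, minus strand: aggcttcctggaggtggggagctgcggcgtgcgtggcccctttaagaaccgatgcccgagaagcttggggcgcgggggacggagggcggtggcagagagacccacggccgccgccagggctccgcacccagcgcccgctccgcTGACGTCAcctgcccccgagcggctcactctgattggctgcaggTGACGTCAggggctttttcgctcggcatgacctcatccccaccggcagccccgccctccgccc
Dusp5, chr19:53528895-53529144, plus strand: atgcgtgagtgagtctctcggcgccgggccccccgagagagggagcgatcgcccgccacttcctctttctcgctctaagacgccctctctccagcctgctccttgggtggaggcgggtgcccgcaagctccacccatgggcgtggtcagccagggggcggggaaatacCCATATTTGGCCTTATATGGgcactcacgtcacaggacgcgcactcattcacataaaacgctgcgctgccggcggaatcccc

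RefSeq windows of 250 bases before to 50 after the start were found for 9 of the 10 members, Dusp4 being named only, and were searched on both strands. The cAMP response element began at -143 in Dusp1 and at -107 and -63 in Dusp8, counted from the start, and was held by 1.79% of 32851 windows of the same length. The serum response element began at -82 and -72 in Dusp5 and was held by 1.63% of windows. The AP-1 motif TGANTCA was in 0 of the 9 member windows and in 7.81% of all windows. The shorter motif TGACG, which the full element contains, was in the windows of Dusp1, Dusp2, Dusp5, Dusp8 and Dusp16 and in 20.8% of all windows. Neither it nor the full element was in the windows of Dusp10 and Dusp14, which also passed as higher after crush in HB9 cells. The start of the deposited Dusp1 and Dusp5 models lay 47 and 36 bases from the RefSeq start. That of Dusp8 lay 559 bases away, that of Dusp14 904 bases away and that of Dusp10 21079 bases away. These matches describe letters in the windows and measure no binding.

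Dusp10 (ENSMUSG00000039384, 1:184013302-184075636, plus strand), a JNK and p38 phosphatase, was nearly absent from HB9 sham cells and present in the other groups. Its level was 12.4, 27.0 and 46.2 RPKM in Opn4 crush libraries, against 7.23, 30.0 and 13.7 RPKM in Opn4 sham libraries. Its HB9 levels were 17.3, 18.0 and 10.3 RPKM after crush, against 4.25, 1.87 and 0 RPKM after sham. The Opn4 groups overlapped, whereas all HB9 crush libraries exceeded all HB9 sham libraries. The log2 difference after crush was 2.67 ± 0.66 in HB9 cells, with a limma adjusted p of 0.0297, and 0.75 ± 0.66 in Opn4 cells, with an adjusted p of 0.649. The difference between the responses was -1.93 ± 0.93 with a 95% interval of -3.95 to 0.09 and did not pass, with an adjusted p of 0.413. The HB9 call was lost without any one of HB9 crush 1, 2 and 3 and HB9 sham 2 and 3, at adjusted p of 0.0604 to 0.117. It was also lost with the rod covariate (adjusted p = 0.0889) and in the voom fit to recovered reads (adjusted p = 0.151). Without HB9 sham 3, where Dusp10 was listed at 0, the log2 difference was 2.02.

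Between classes, Dusp10 was higher in Opn4 sham than in HB9 sham cells by 2.65 ± 0.66 on the log2 scale, with a limma adjusted p of 0.0198 and no overlap. The call was lost with the rod covariate at an adjusted p of 0.284, and without Opn4 sham 2 or 3 or HB9 sham 2 or 3 at adjusted p of 0.0504 to 0.0819. Without HB9 sham 3 the log2 difference was 2.00. Summed rod markers moved in the same direction, at 583 to 1572 RPKM in Opn4 sham against 172 to 742 RPKM in HB9 sham libraries, and their part in this difference was not tested beyond that covariate. After crush the classes overlapped, at a log2 difference of 0.73 ± 0.66 with an adjusted p of 0.532. Dusp10 overlaps the gene 1700056E22Rik on the opposite strand, which did not exceed 1.42 RPKM in any library, and whether reads were counted by strand is not given in the sources used here.

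Dusp16 (ENSMUSG00000030203, 6:134715473-134792625, minus strand), a JNK-preferring phosphatase that shuttles between nucleus and cytoplasm, had the lowest mean of the tested members in all groups but Opn4 crush, where Dusp5 was lower. It stood at 0.822, 0.700 and 8.93 RPKM in Opn4 crush libraries, against 0.451, 0 and 0.0547 RPKM in Opn4 sham libraries. In the HB9 groups it was 2.57, 2.71 and 1.096 RPKM after crush, against 0.0233, 0.0265 and 0 RPKM after sham, where the reads recovered were 4, 5 and 0. Crush libraries exceeded sham libraries in both classes, a direction favoured by its entry into the test through crush libraries alone. Neither difference passed, at 1.44 ± 0.60 (limma adjusted p = 0.295) in Opn4 cells and 1.58 ± 0.60 (adjusted p = 0.158) in HB9 cells. Without Opn4 crush 3 the Opn4 difference was 0.61 and the HB9 difference passed with an adjusted p of 0.0279. The size of the HB9 difference depended on the value added before the logarithm, and it was 4.16 with a pseudocount of 0.1 (adjusted p = 0.0459). It was 7.04 in the voom fit (adjusted p = 0.0416).

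Dusp14 (ENSMUSG00000018648, 11:84048041-84069261, minus strand), the atypical member, had the largest mean crush difference of the 9 over both classes with the pseudocount of 1. It stood at 4.51, 26.7 and 20.8 RPKM in Opn4 crush libraries, against 0, 3.37 and 2.99 RPKM in Opn4 sham libraries. Among HB9 libraries the level was 57.5, 42.3 and 36.9 RPKM after crush, against 8.66, 7.30 and 4.42 RPKM after sham. Crush libraries exceeded sham libraries in each class, with Opn4 crush 1 close to the Opn4 sham values. In HB9 cells the log2 difference was 2.60 ± 0.65 with a limma adjusted p of 0.0324. That call was lost without any one of the 6 HB9 libraries, at adjusted p of 0.0683 to 0.123, and at a pseudocount of 0.1, at 0.22. In Opn4 cells the log2 difference was 2.52 ± 0.65 with an adjusted p of 0.0885. Without Opn4 crush 1 it was 3.24 and passed, with an adjusted p of 0.0237, and without Opn4 sham 1 it was 1.84. Without both Opn4 libraries numbered 1 it was 2.56, with an adjusted p of 0.0135. The difference between the responses was -0.07 ± 0.93 with a 95% interval of -2.07 to 1.93. With a pseudocount of 0.1 it was 0.99, and in the voom fit it was 2.35. All Opn4 libraries lay below all HB9 libraries of the same surgery. The class differences did not pass, at -1.55 ± 0.65 (adjusted p = 0.16) after sham and -1.62 ± 0.65 (adjusted p = 0.132) after crush. With the rod covariate they were -0.68 and -0.91, without Opn4 sham 1 that after sham was -0.86, and without Opn4 crush 1 that after crush was -0.90.

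**Figure D3:**
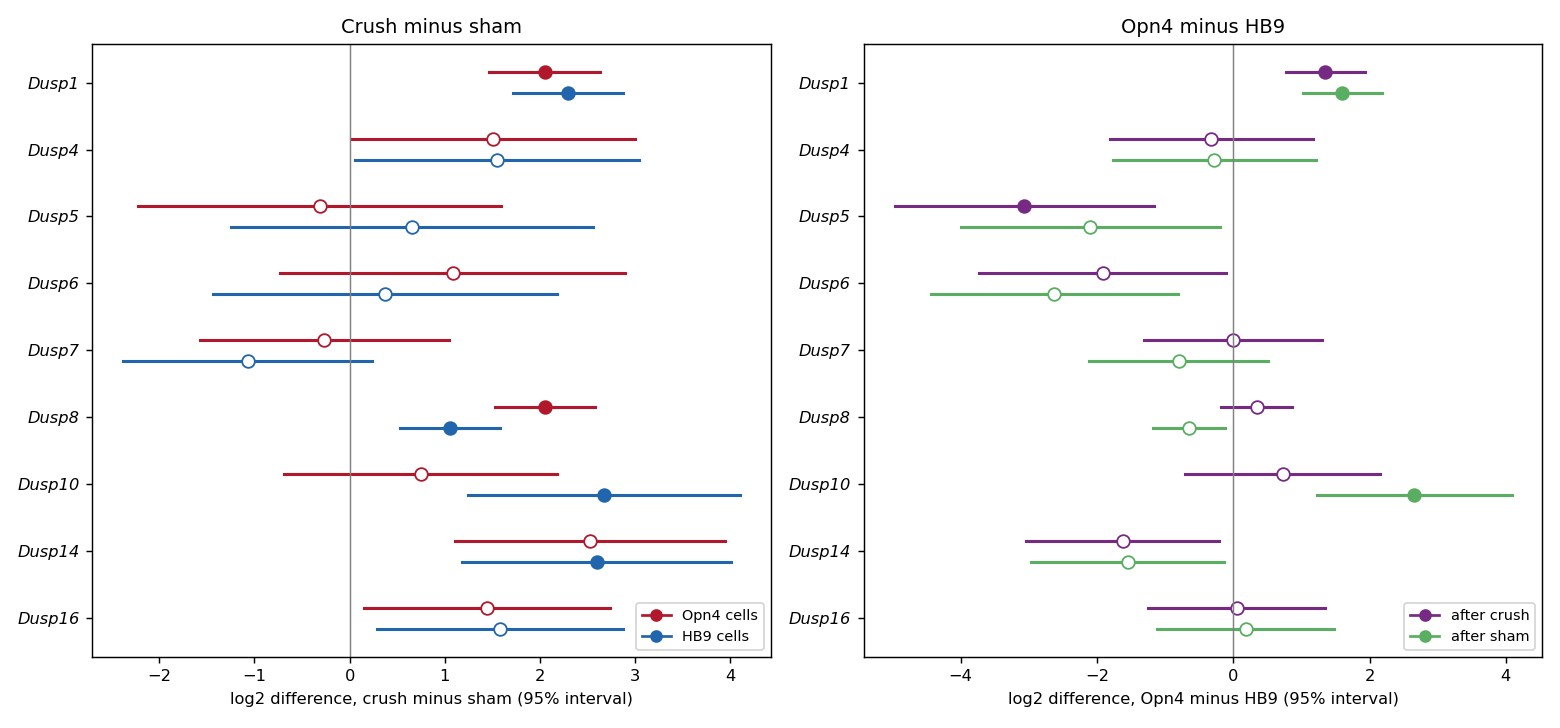
Log2 differences of the 9 tested members with 95% intervals, crush minus sham for each class on the left and Opn4 minus HB9 for each surgery on the right. Filled points passed an adjusted p of 0.05, and in the crush comparisons these are Dusp1 and Dusp8 in Opn4 cells and Dusp1, Dusp8, Dusp10 and Dusp14 in HB9 cells.

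Averaged over both classes, the crush effect passed for 5 of the 9 tested members, all higher. Among the 5, Dusp16 entered the test through crush libraries alone, so its direction was built into its selection. Of all tested genes 4.13% were higher and 2.85% lower, 6.98% in all. Dusp14 had a mean log2 effect of 2.56 ± 0.46 with a limma adjusted p of 0.0049. Dusp1 had 2.17 ± 0.19 with an adjusted p of 2.51e-05, and Dusp8 had 1.55 ± 0.17 with an adjusted p of 0.000151. These 3 passed under all 21 alternatives that apply to the average. Dusp10, at 1.71 ± 0.47, and Dusp16, at 1.51 ± 0.42, had adjusted p of 0.0451 and 0.0498. Dusp10 passed in 6 of 21 alternatives and was lost without any one of Opn4 crush 2 and 3, Opn4 sham 1 and 3, HB9 crush 1, 2 and 3 and HB9 sham 2 and 3, at adjusted p of 0.069 to 0.106. Dusp16 was lost without any one of the 3 Opn4 sham or the 6 HB9 libraries, at adjusted p of 0.0616 to 0.112.

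The difference of crush effects between the classes passed for 0 of the 9 members by limma and for 0 in the voom fit, while 0.816% of all tested genes passed, 0.29% with the more positive effect in Opn4 cells and 0.525% with the more negative one. At an unadjusted p under 0.05 the count was 1 of 9, Dusp8. The 95% intervals for Dusp1, Dusp10 and Dusp14 spanned 0. The effects compared come from separate crush and sham libraries of each class.

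**Figure D4:**
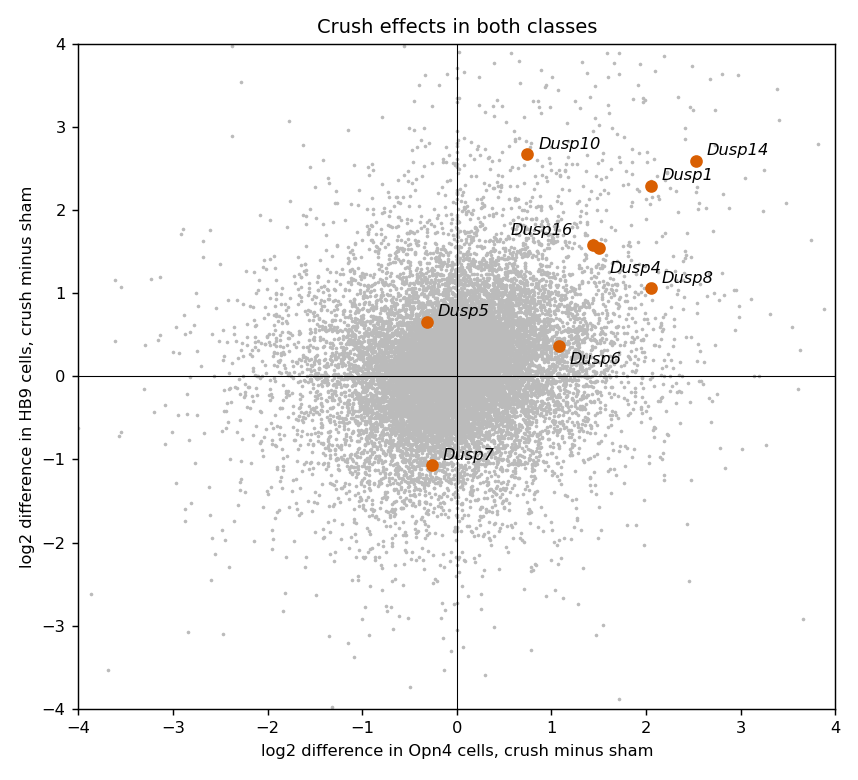
Crush minus sham log2 difference in Opn4 cells against that in HB9 cells for the 18269 tested genes in grey, with the 9 tested members named. The axes stop at 4 log2 units in each direction, which leaves 53 genes outside, and Dusp1 and Dusp14 lie above 2 on both axes.

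Between classes after sham, 2 of the 9 members, Dusp1 and Dusp10, were higher in Opn4 cells and 0 were lower, while 5.82% of all tested genes were higher and 5.93% lower, 11.8% in all. Without a test, 2 members lay wholly above and 4 wholly below, against 15.5% and 15.2% of all genes, the 4 being Dusp6, Dusp7, Dusp8 and Dusp14. After crush 1 member, Dusp1, was higher and 1, Dusp5, was lower, while 5.12% of all tested genes were higher and 7.6% lower, 12.7% in all. Without a test, 1 member lay wholly above and 2, Dusp5 and Dusp14, lay wholly below, against 12.8% and 17.6% of all genes. The remaining class differences ran from -0.80 ± 0.60 for Dusp7 after sham to 0.18 ± 0.60 for Dusp16 after sham, leaving out those already given, and none of them passed. For Dusp7 after crush the 95% interval was -1.31 to 1.31.

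The order of levels within each group was read from RPKM, which is per length. In Opn4 crush libraries Dusp1 stood apart from Dusp8, and Dusp8 from Dusp10, while each later neighbour down to Dusp5 overlapped the next. In Opn4 sham libraries Dusp1 stood apart from Dusp8, and no other pair of neighbours separated. In HB9 crush libraries Dusp1, Dusp8, Dusp14 and Dusp5 followed each other without overlap, and Dusp5, Dusp10, Dusp4, Dusp6 and Dusp7 formed an overlapping run at group means of 8.37 to 16.6 RPKM. In HB9 sham libraries Dusp8 led and stood apart from Dusp1, which stood apart from Dusp7. Dusp14 was the third in order in HB9 crush cells and the sixth in HB9 sham cells, with group means of 45.6 ± 10.7 and 6.80 ± 2.16 RPKM.

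Members varied together to different degrees over the 12 libraries, which share their groups, so these correlations describe the data without a test. The highest Pearson correlation of log2(RPKM + 1) between members was 0.87 for Dusp5 and Dusp6, and it was 0.80 after group means were removed. Dusp1 and Dusp10 followed at 0.85 over libraries and 0.64 within groups. Dusp1 and Dusp8, both higher after crush, had 0.67 over libraries and -0.12 within groups. The lowest was -0.48, for Dusp1 and Dusp7. Among all other tested genes, those most like Dusp1 were Stat3 (0.953), Pvrl3 (0.953) and 1700029J07Rik (0.949), with 0.584, 0.767 and 0.532 within groups. For Dusp8 they were Atg12 (0.975), Akna (0.947) and Gm16159 (0.946), and for Dusp14 they were Slc7a1 (0.959), Eif3c (0.957) and Stk40 (0.944). For Dusp5 the list began with Map3k5 (0.958), for Dusp10 with Slc24a2 (0.932), for Dusp4 with Cnp (0.963), for Dusp6 with Actn2 (0.915), for Dusp7 with D330041H03Rik (0.920) and for Dusp16 with Slamf9 (0.910).

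Other genes of the MAP kinase pathways were read from 8 lists. Among 11 tested dual-specificity phosphatases outside the family's 10, 0 passed in Opn4 cells and 2 were called higher in HB9 cells. The shares of all tested genes called higher and lower, beside which the counts of all 8 lists stand, are 0.69% and 0.421% in Opn4 cells and 3.84% and 2.57% in HB9 cells. Dusp26 averaged 117 ± 28.8 RPKM in HB9 crush against 57.8 ± 10.4 RPKM in HB9 sham libraries, with a log2 difference of 0.99 ± 0.23 and a limma adjusted p of 0.022. Dusp9, another ERK-preferring cytoplasmic phosphatase, was at 1.18 to 2.26 RPKM in HB9 crush libraries and listed at 0 in HB9 sham and in all Opn4 libraries (adjusted p = 0.0193). It entered the test through the 3 HB9 crush libraries alone, so its higher level there was built into its selection. The Dusp26 call was lost without any one of HB9 crush 1 and 2 and HB9 sham 1 and 2, at adjusted p of up to 0.101. The Dusp9 call was lost without any one of HB9 crush 1 and 2 and the 3 HB9 sham libraries, at adjusted p of up to 0.0758. Among 7 tested MAP kinase phosphatases of other families, 0 passed in Opn4 cells and 1 rose in HB9 cells. That gene was Ptpn5, the neuronal tyrosine phosphatase of ERK and p38 known as STEP, at 21.2 ± 0.971 RPKM in HB9 crush against 2.44 ± 1.26 RPKM in HB9 sham libraries. Its log2 difference was 2.77 ± 0.36 with an adjusted p of 0.000525. In Opn4 cells Ptpn5 averaged 20.6 ± 6.29 RPKM after crush and 25.5 ± 2.84 RPKM after sham, and the difference of the effects, -3.10 ± 0.51, passed with an adjusted p of 0.016.

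Of 17 ERK cascade genes 0 passed in Opn4 cells and 1 fell in HB9 cells, Map2k1, an ERK kinase, by a log2 difference of -0.75 (limma adjusted p = 0.0182). Of 12 JNK cascade genes 0 passed in Opn4 cells and 1 fell in HB9 cells, Mapk10, the neuronal JNK, by -0.85 (adjusted p = 0.0436). The Map2k1 call was lost without any one of HB9 crush 1 and 2 and HB9 sham 2 and 3, at adjusted p of up to 0.0857. The Mapk10 call was lost without any one of the 6 HB9 libraries or Opn4 sham 3, at adjusted p of up to 0.164. Of 10 p38 cascade genes 0 passed in either class. On the average over both classes, 4.13% of all tested genes were higher and 2.85% lower. There Mapk8ip1, of the JNK list, was higher at 0.87 (limma adjusted p = 0.00611) and Mapk10 lower at -0.77 (adjusted p = 0.0128), each in 21 of 21 alternatives. Map2k4 was lower at -0.46 (adjusted p = 0.0394, 7 of 21). Map2k3, of the p38 list, was higher at 1.82 (adjusted p = 0.0117, 20 of 21). Of the ERK list, Mapk3 was higher on the average at 0.59 (adjusted p = 0.0343, 8 of 21) and Map2k1 lower at -0.52 (adjusted p = 0.0191, 17 of 21). The medians of these 3 lists were -0.10, 0.29 and 0.25 in Opn4 cells and -0.05, -0.13 and 0.11 in HB9 cells, beside -0.02 and 0.11 over all genes.

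Of 14 tested ERK feedback and target genes 1 rose in Opn4 cells, while 2 were called higher and 1 fell in HB9 cells. Egr1, an immediate early transcription factor, averaged 123 ± 31.7 RPKM in Opn4 crush against 30.5 ± 17.3 RPKM in Opn4 sham libraries, and its log2 difference of 2.14 ± 0.41 had a limma adjusted p of 0.025. That call was lost without Opn4 crush 2, at an adjusted p of 0.0648. In HB9 cells Egr1 averaged 129 ± 34.9 RPKM after crush and 28.4 ± 6.33 RPKM after sham (adjusted p = 0.00678). Fosl1, a Fos-family factor, averaged 14.9 ± 4.82 RPKM in HB9 crush against 0.324 ± 0.386 RPKM in HB9 sham libraries (adjusted p = 0.0117). It was under 1 RPKM in every sham library and so entered the test through crush libraries alone, and the call was lost without HB9 crush 1 or HB9 sham 3 at adjusted p of up to 0.0577. Ier3 fell by 1.31 on the log2 scale in HB9 cells (adjusted p = 0.0215), and was lost without any one of HB9 crush 2 and 3 and the 3 HB9 sham libraries at adjusted p of up to 0.092. Of 12 JNK target and injury genes 4 were called higher in Opn4 cells and 7 in HB9 cells, beside 0.69% and 3.84% of all tested genes, and 0 were called lower in either class. Atf3, an injury-induced partner of Jun, averaged 59.2 ± 17.4 RPKM in Opn4 crush against 0.0824 RPKM in Opn4 sham libraries, and 540.0 ± 105 RPKM in HB9 crush against 0.0868 RPKM in HB9 sham libraries. Like Fosl1, Atf3 was tested only because of its crush libraries. Gadd45a, a stress gene, averaged 21.9 ± 8.93 RPKM in Opn4 crush against 15.1 ± 10.8 RPKM in Opn4 sham libraries, and 167 ± 25.2 RPKM in HB9 crush against 11.1 ± 1.38 RPKM in HB9 sham libraries. The list holds genes already known from nerve injury and was fixed with earlier results of these data known, so its direction is not independent evidence. The list's median log2 difference was 1.59 in Opn4 and 2.46 in HB9 cells. Of 8 tested genes in a mixed list of upstream and immediate early transcription factors, 0 passed in Opn4 cells and 1 rose in HB9 cells. It was Crem, a factor of the cAMP response family, at 20.9 ± 0.981 RPKM in HB9 crush against 2.72 ± 0.303 RPKM in HB9 sham libraries (adjusted p = 0.00387).

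**Figure D5:**
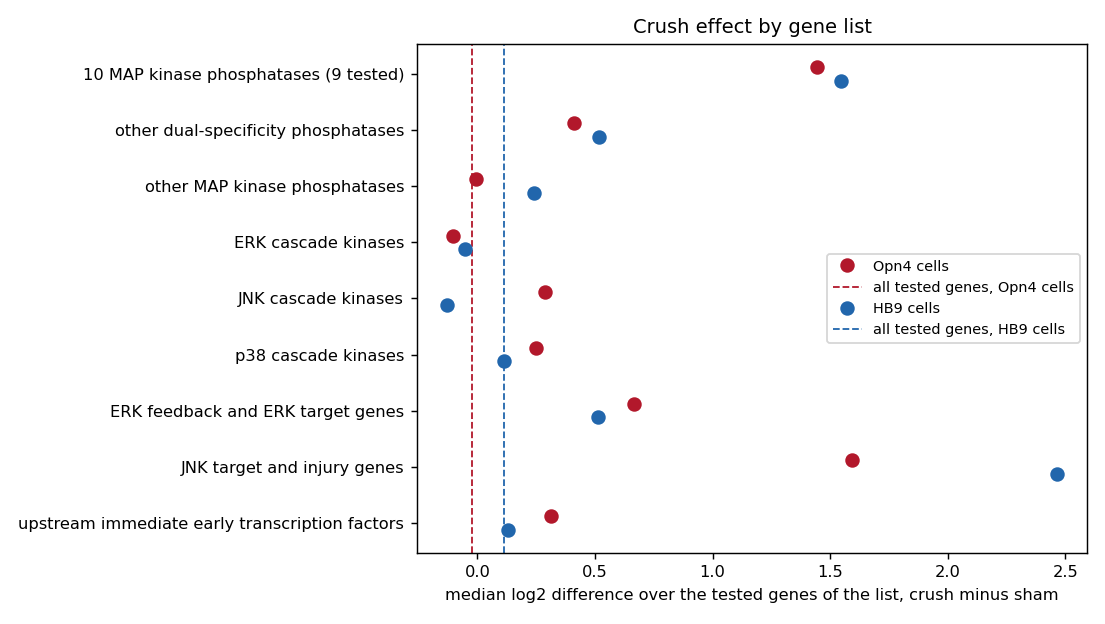
Median crush minus sham log2 difference of the 9 tested members and of each of the 8 pathway lists, in Opn4 and HB9 cells, with dashed lines for the median over all tested genes. The members' medians are 1.44 and 1.55, and among the pathway lists the JNK target and injury genes stand at 1.59 and 2.46. The members' Opn4 median is the value of Dusp16, which was tested through crush libraries alone.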

How the data were processed

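The table, with 38887 genes on 21 chromosomes and 12 libraries, holds RPKM values as the authors deposited them. TopHat2 2.0.11, Bowtie, edgeR 3.14.0 and mm10 are named per the submitters' processing notes, which give no settings. Whole reads were recovered from the RPKM steps. Library totals came from short genes, where 99.3% to 99.7% of the values per library were whole. Each gene's length was then taken as the smallest that made its values whole, and was found for all 28168 genes above 0. That 100% of their values lay within 0.01 read of a whole number largely follows from this choice. The recovered reads summed to 226.7% to 244.2% of the totals used for scaling, so a read may have been counted for more than 1 gene or its mates singly. RPKM per library is therefore best read relative to other libraries.

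Values were taken as log2(RPKM + 1) and filtered at 1 RPKM in at least 3 of the 12 libraries, which left 18269 genes. One limma fit with 4 group means gave 6 comparisons, with Benjamini-Hochberg adjustment over all genes and a threshold of 0.05 (limma 3.58.1 in R 4.3.3, empirical Bayes with a trend). The code was tested on simulated data. The p-values measure the spread between libraries of pooled cells. The alternatives were 12 fits that left out 1 library each and 10 others (pseudocount 0.1, no filter, a filter of 6 libraries, a common median, voom on recovered reads with an own TMM scaling, the 6 libraries of the comparison only, a replicate block, library weights, a rod marker covariate, and both Opn4 libraries numbered 1 left out). The 6-library fit does not apply to the average or to the difference of the crush effects.

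All 10 members and the checks of label and injury were named. Also eligible were, from each pathway list, up to the 2 highest and 2 lowest changes past the threshold, and the 3 genes most correlated with each member. Of these, list genes are given mainly for the crush comparisons, and for some members only the most correlated gene is given. The members, lists and comparisons were chosen with earlier results of these data known. Motifs were searched in RefSeq windows of build GRCm38.p6. Of the 10 members, 7 had coordinates and recovered lengths equal to GENCODE M21.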

Additional observations from a re-analysis of the deposited data

Results flagged for a closer look

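The crush effect differed between the classes, Opn4 minus HB9, for 5 of the named genes by the limma test of the difference itself, and none of them is one of the 10 phosphatases. Ptpn5 differed by -3.10 ± 0.51 on the log2 scale (adjusted p = 0.016), with effects of -0.33 in Opn4 and 2.77 in HB9 cells. Atf3, an injury-induced transcription factor, differed by -3.18 ± 0.44 (adjusted p = 0.00742), with 5.76 in Opn4 and 8.94 in HB9 cells. Gadd45a, a stress gene, differed by -3.13 ± 0.62 (adjusted p = 0.038), with 0.66 in Opn4 and 3.79 in HB9 cells. Eomes, a transcription factor used as an Opn4 class marker, differed by -3.11 ± 0.46 (adjusted p = 0.00839), with -0.79 in Opn4 and 2.32 in HB9 cells. Mnx1, the HB9 class marker, differed by 3.24 ± 0.60 (adjusted p = 0.0281), with -0.06 in Opn4 and -3.30 in HB9 cells. Opn4 libraries held almost no Mnx1 after crush or sham, at means of 0 and 0.0481 RPKM, so it could not fall there and this value restates its fall in HB9 cells. With a pseudocount of 0.1, and in the voom fit, the differences of Atf3, Eomes, Gadd45a and Mnx1 no longer passed. They were -3.07 and -2.33 for Atf3, -4.52 and -5.76 for Eomes, -3.19 and -3.20 for Gadd45a, and 3.34 and 2.91 for Mnx1, at a pseudocount of 0.1 and in the voom fit in that order. Atf3 entered the test through crush libraries alone. The Gadd45a difference was also lost without any one of Opn4 crush 1 and 3, Opn4 sham 1 and 3 and the 6 HB9 libraries, at adjusted p of up to 0.105, and without a filter at 0.0831. The Mnx1 difference was lost without any one of Opn4 sham 3, HB9 crush 1, 2 and 3 and HB9 sham 2 and 3, at adjusted p of up to 0.0849.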

How the results depend on the processing

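Each result was computed under up to 22 alternatives. The direction reversed in 30 of the values recomputed, none of which passed as reported. Whether the replicate numbers pair the libraries is not given in the sources used here. After group means were removed, the 18 same-numbered pairs across groups had correlations of -0.0217 to 0.081 over all tested genes. Differently numbered pairs had -0.0795 to 0.0705, and a batch shared by only some genes was not tested. With the replicate block, Dusp10 and Dusp16 were lost for the average, and no other call on a member changed. With it 98 genes passed for the difference of the effects, where the block lost Gadd45a (limma adjusted p = 0.0683) and Mnx1 (adjusted p = 0.0621). In the fits to the 6 libraries of a comparison, 13 of the 18269 tested genes and 0 members passed for crush in Opn4 cells. In HB9 cells 1939 genes and 7 members passed, of which Dusp7 was lower and the rest were higher. Between classes these fits lost Dusp10 after sham and Dusp5 after crush. The construction gives these fits fewer samples. Library weights gave 87 genes for crush in Opn4 cells and 3025 in HB9 cells. Without a filter, Dusp10 and Dusp14 were lost for crush in HB9 cells and Dusp10 and Dusp16 for the average. Between classes it lost Dusp10 after sham and Dusp5 after crush. With the rod covariate Dusp8 and Dusp10 were lost for crush in HB9 cells, and the losses in the other comparisons were those seen without a filter. In that fit 640 and 891 genes passed between classes after sham and after crush. The common median lost Dusp10 and Dusp16 for the average. At a pseudocount of 0.1, 90 genes passed for the difference of the effects. There and in the voom fit, Dusp10 and Dusp14 were lost and Dusp16 was gained for crush in HB9 cells. Both settings also lost Dusp10 for the average and Dusp5 between classes after crush. The voom fit lost Dusp10 between classes after sham as well. Leaving out both Opn4 libraries numbered 1 lost Dusp5 between classes after crush and gained Dusp14 for crush in Opn4 cells and Dusp4 in HB9 cells. The cause of these moves was not tested.

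With 1 library left out, crush called 139 to 224 genes and 2 to 3 members in Opn4 cells, 645 to 1393 genes and 1 to 5 members in HB9 cells, and 799 to 1218 genes and 3 to 5 members on average. The difference of the effects called 61 to 156 genes and 0 members, the classes after sham 1348 to 2353 genes and 1 to 3 members, and the classes after crush 1356 to 2619 genes and 1 to 3 members. Reversed directions in these fits were those of Dusp5 (-1.25 to 0.71) and Dusp7 (-0.78 to 0.51) for crush in Opn4 cells and Dusp6 (-0.0928 to 0.81) in HB9 cells. They were also those of Dusp1 (-0.48 to 0.12) and Dusp14 (-0.76 to 0.65) for the difference of the effects, Dusp4 (-0.94 to 0.70) after sham, and Dusp4 (-0.52 to 0.0523), Dusp7 (-0.39 to 0.78) and Dusp16 (-0.78 to 0.49) between classes after crush. For Dusp14 the difference of the effects was 0.99 at a pseudocount of 0.1, 0.0618 with the common median and 2.35 in the voom fit. The class difference of Dusp4 after sham was 0.0796 with library weights, 0.17 with the rod covariate and 0.70 without both Opn4 libraries numbered 1, and after crush 0.0477 with the rod covariate. That of Dusp7 after crush was 0.0492 with the common median, 0.0425 with library weights and 0.36 with the rod covariate, and that of Dusp16 was -0.14 at a pseudocount of 0.1 and -0.0258 in the voom fit. Dusp2, Dusp4, Dusp5, Dusp6, Dusp10, Dusp14 and Dusp16 had values of 0 in at least 1 library, and whether depth sets these zeros was not tested.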
